A study of Mus musculus with 4 samples.

Results

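Endothelial cells line blood and lymphatic vessels. The 40 genes described here were chosen by name as a set of endothelial receptors, ligands, junction proteins and transcription factors. Earlier results of these data were known at that choice. All 40 were found among the 52636 Ensembl genes of the count tables, and all 40 passed the low-count filter that left 16557 genes to test. They were read in RNA of otic cells that had been purified by flow sorting from mouse otocysts, the vesicles of ectoderm that form the inner ear. There were 2 libraries labelled Control and 2 labelled Brg1cKO, a conditional knockout of the chromatin remodeler gene Brg1 (Smarca4), each made from 3000 cells. The sources used here do not name the embryonic age, strain, Cre driver, floxed allele or sort marker, nor say whether replicates came from separate embryos or litters. The p-values therefore measure only how far these libraries differ among themselves, a spread that may be technical.

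The vascular endothelium of an embryo is shaped by a few receptor systems. VEGF receptors drive the growth and sprouting of vessels, the TIE receptors stabilise them, and Notch sets the balance between tip and stalk cells. VE-cadherin (Cdh5) and claudin-5 (Cldn5) hold neighbouring cells together, and ETS and SOXF transcription factors keep the endothelial programme on. Vessels grow in the mesenchyme around the otocyst and are not part of its epithelium.

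Gene reads per library ranged from 15357265 to 29361382, with both controls below both Brg1cKO libraries, and the share of records in genes was 48.2% to 49.3% in the controls and 63.7% to 64.0% in the others. Genes with any read numbered 17266 and 17086 in control libraries against 20859 and 20902 in Brg1cKO libraries. Smarca4 stood at 816 and 815 CPM in control libraries against 891 and 848 CPM in Brg1cKO libraries. CPM here are counts scaled to a common library size, by each library's TMM-scaled total over tested genes. The Smarca4 log2 fold change was 0.09 ± 0.0995 (SE), adjusted p = 0.817 by edgeR. Its reads are counted over the whole gene, deleted exons or not, so this checks the labels little, and each direction given here rests on the labels. Oc90, an otoconial protein gene of otic epithelium, stood at 782 and 732 CPM in control libraries against 44.6 and 49.1 CPM in Brg1cKO libraries.

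Endothelial transcripts were present at high levels in all 4 libraries. The 40 genes together made up 0.577% to 0.706% of scaled reads. Their summed level was 6297 and 5771 CPM in control libraries against 7055 and 6688 CPM in Brg1cKO libraries. Both Brg1cKO libraries lay above both controls, by a ratio of means of 1.14, and the exact two-sided permutation p was 0.333, the smallest that 2 against 2 libraries can give. In every library 38 of the 40 genes stood at 10 CPM or more, and 14 at 100 CPM or more. No gene was at 0 in any library. The lowest was Stab2, a hyaluronan receptor of sinusoidal and lymphatic-type endothelium, with 8 and 125 reads in control libraries against 93 and 254 in Brg1cKO libraries. In bulk RNA, fewer cells of a type and less RNA per cell cannot be told apart.

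**Figure D1:**
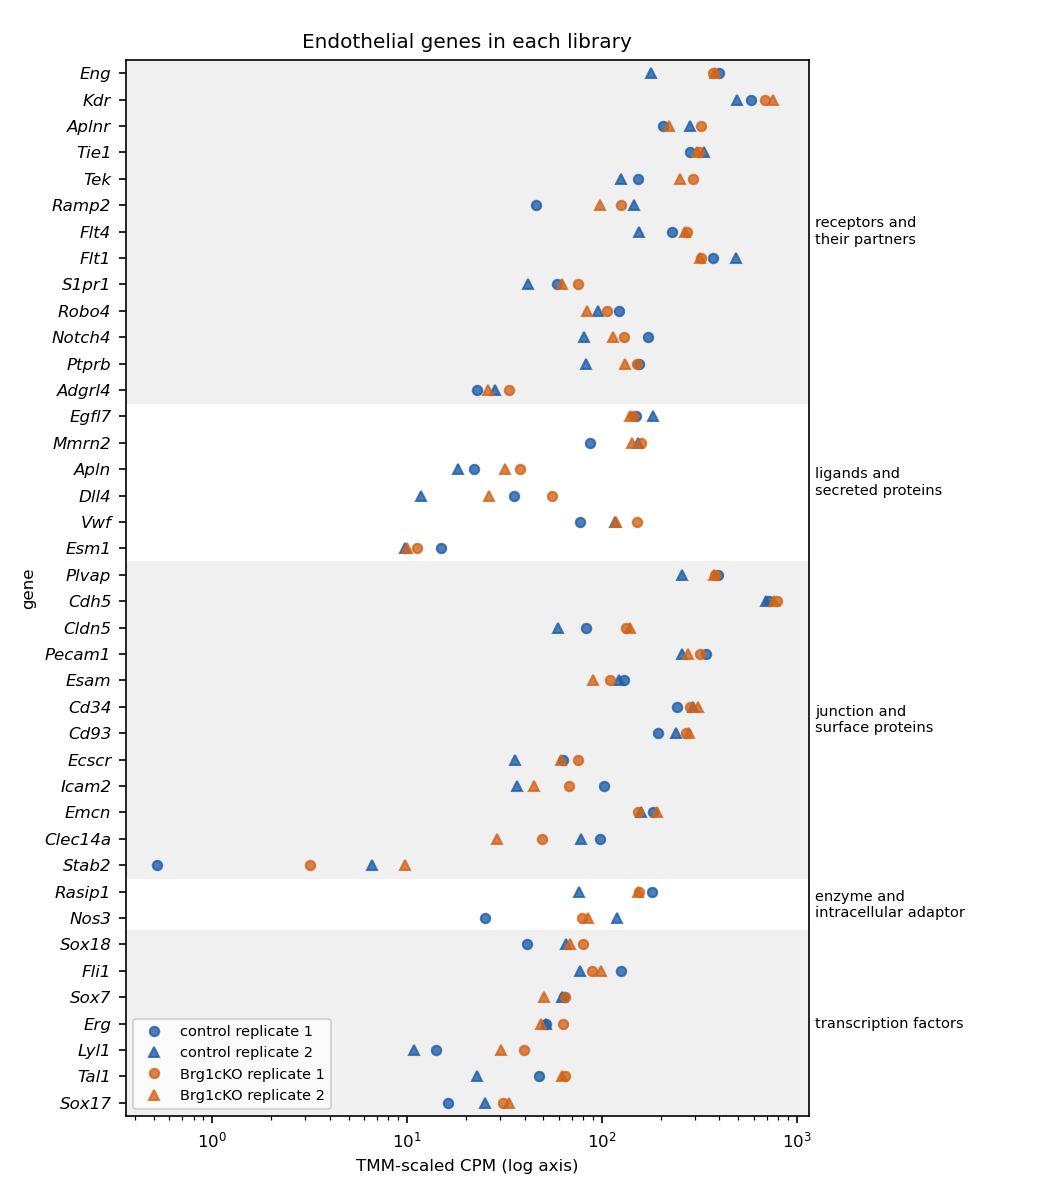
TMM-scaled CPM (log axis) of the 40 endothelial genes, grouped by role and ordered within a role by mean CPM per kb of exon. Each point is 1 library (blue, control; orange, Brg1cKO; circle, replicate 1; triangle, replicate 2), and Stab2 is the only gene under 1 CPM in a library, at 0.520 CPM in control replicate 1.

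Ranked by CPM per kb of exon, a scale on which genes can be compared with each other, the highest were Plvap, the protein of endothelial diaphragms, at 177 and Cdh5 at 177 as means over the 4 libraries. Eng, a TGF-beta co-receptor, followed at 82.1, Cldn5 at 73.0, the VEGF receptor Kdr at 69.7, the apelin receptor Aplnr at 69.6 and Tie1 at 62.9. Of all genes tested, 99.2% had a mean level per kb no higher than that of Cdh5, and the median of this percentile over the 40 genes was 89.8%. The lowest on this scale were Sox17 at 5.53, the tip cell protein Esm1 at 5.47 and Stab2 at 0.575. Neighbours in this order mostly did not separate, since the control libraries alone spanned 55.6 to 76.3 CPM per kb for Aplnr and 54.8 to 64.1 for Kdr.

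Brg1cKO against control gave no call among the 40 genes (edgeR quasi-likelihood test, adjusted p under 0.05 over all genes), where 0.0302% of all genes tested were called. The lowest adjusted p was 0.198, for Tek. At an unadjusted p under 0.05, 4 members were higher and 2 lower, 10% and 5% of the 40, against 7.66% and 4.8% of all genes tested (in either direction, 15% against 12.5%). DESeq2 called 6 members, the same 4 higher and 2 lower, which is 15% of them against 14.6% of all genes. No member was called by limma voom, which called 0.326% of all genes, or under the newer edgeR moderation, which called 0.423%. With the replicate number as a block 1 member, Tek, was called, 2.5% of them against 0.846% of all genes. Of the 40, 29 had a positive log2 fold change and 11 a negative one, with a median of 0.21, against 51.5% positive and a median of 0.03 over all genes. Both Brg1cKO libraries lay above both controls for 13 members (32.5%) and below both for 4 (10%), where the background was 26.3% and 17.8%, or 44.1% in either direction. Without control replicate 1 the edgeR calls among members became 14, or 35% of them against 17.6% of all genes tested in that fit, and without control replicate 2 they became 10, or 25% against 16.9%. Without Brg1cKO replicate 1 and without Brg1cKO replicate 2 no member was called, against 0.237% and 0.173% of all genes. With every gene of at least 1 count kept, Tek was called, against 1.66% of all genes. The all-gene median also depended on the fit. It was 0.29 without control replicate 1 and 0.29 without control replicate 2, above the members' 0.20 and 0.15 there, and 0.21 with every gene of at least 1 count, where the members' median was also 0.21.

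The interval of the difference was narrow for some genes and wide for others. For 17 of the 40 the 95% interval lay wholly within a change of 2-fold either way, and for 23 it did not. Only Lyl1 and Clec14a had a fitted log2 fold change of 1 or more in size, 5% of the members against 32.6% of all genes. The members' median level percentile was 89.8%, and no share was computed among genes of like level, so these shares are not comparable. The median SE of the log2 fold change was 0.33 for members and 0.71 for all genes. The median gap between replicates, in log2 of CPM plus 0.1, was 0.48 for members in the controls and 0.20 in Brg1cKO libraries, and 0.81 and 0.39 over all genes.

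**Figure D2:**
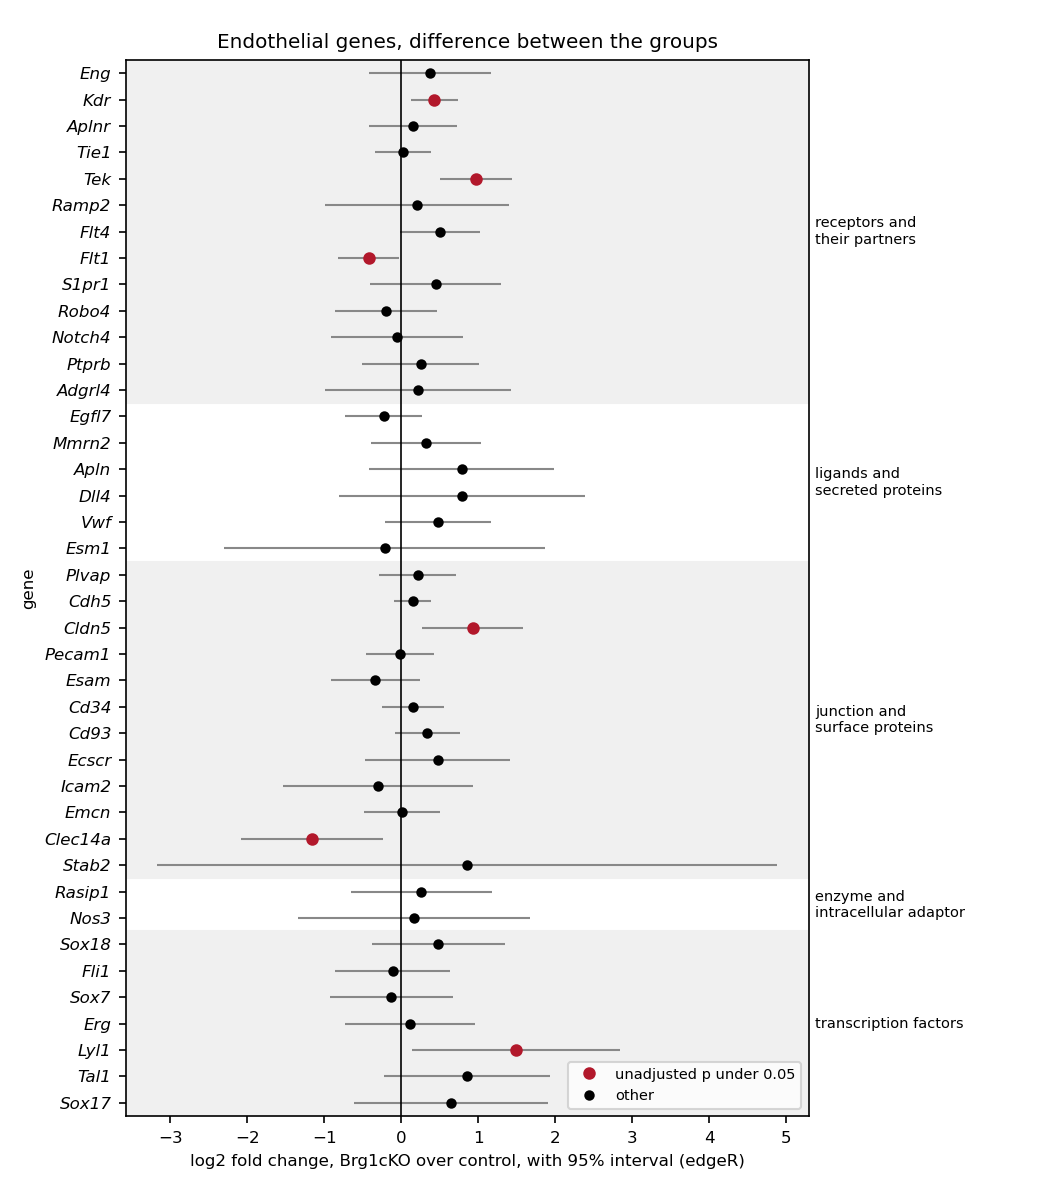
Log2 fold change of Brg1cKO over control for each of the 40 genes with its 95% interval (edgeR), in the order of the plot of CPM by library. Red points have an unadjusted p under 0.05 (Tek, Kdr, Cldn5 and Lyl1 higher, Flt1 and Clec14a lower), and none has an adjusted p under 0.05.

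**Figure D3:**
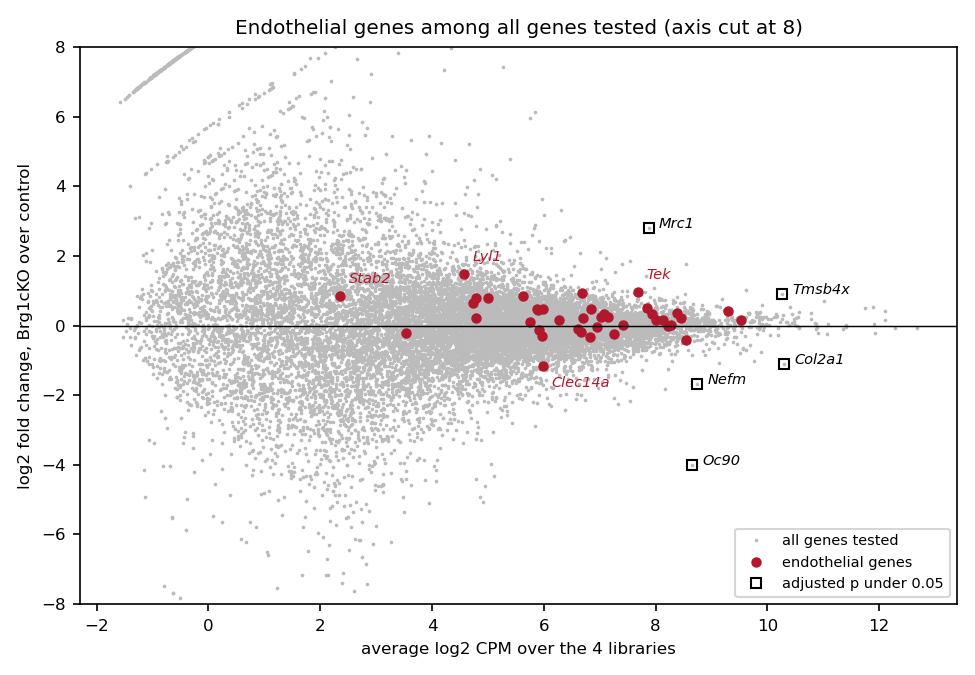
Average log2 CPM (x) and log2 fold change of Brg1cKO over control (y) of the genes tested (grey), with the 40 endothelial genes in red and the 5 genes called over all genes in squares. Fits past 8 log2 units are not drawn, and the red points run from -1.16 (Clec14a) to 1.49 (Lyl1).

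Among the receptors, 10 of 13 had positive and 3 negative log2 fold changes, and none passed. Tek (TIE2, the angiopoietin receptor; ENSMUSG00000006386, chromosome 4, 94739289 to 94874976, mm10) stood at 153 and 125 CPM in control libraries against 293 and 252 CPM in Brg1cKO libraries. Both Brg1cKO libraries were above both controls, with a log2 fold change of 0.97 ± 0.20 (SE), a 95% interval from 0.50 to 1.44, and adjusted p = 0.198 by edgeR; over the 14 alternatives this p ran from 1.96e-08 to 1.0. Its relative Tie1, an orphan receptor that works with it, stood at 284 and 332 CPM against 314 and 308 CPM, with the groups overlapping. The Tie1 interval ran from -0.35 to 0.38. Ptprb, the phosphatase that acts on TIE2, stood at 155 and 83.1 CPM against 151 and 132 CPM, so its controls spanned both Brg1cKO values.

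The VEGF receptors differed in sign, and none passed the test. Kdr (VEGFR2, the main signalling receptor for VEGF-A; ENSMUSG00000062960, chromosome 5, 75932827 to 75978458) stood at 578 and 494 CPM in control libraries against 690.3 and 755 CPM in Brg1cKO libraries. Flt1 (VEGFR1, which binds VEGF-A tightly and signals weakly; ENSMUSG00000029648, chromosome 5, 147561604 to 147726011) stood at 372 and 486 CPM against 321 and 318 CPM. Kdr was thus higher in both Brg1cKO libraries and Flt1 lower in both. The log2 fold changes were 0.43 ± 0.128 for Kdr and -0.43 ± 0.168 for Flt1 (SE; edgeR adjusted p = 0.363 and 0.368). Flt4 (VEGFR3, the receptor for VEGF-C) stood at 228 and 154 CPM against 274 and 268 CPM, again without overlap, with a log2 fold change of 0.50 (adjusted p = 0.428).

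The groups of most other receptors overlapped. Eng stood at 400.5 and 179 CPM in the controls, a wider span than the 369 and 381 CPM of the Brg1cKO libraries, which lay inside it. Aplnr stood at 206 and 282 CPM against 320.4 and 221 CPM, with overlap. S1pr1, the receptor for the lipid S1P that keeps vessels tight, stood at 59.1 and 41.8 CPM against 75.3 and 62.4 CPM, without overlap and with adjusted p = 0.743. Robo4, Notch4, Adgrl4 and Ramp2, the last a partner of the adrenomedullin receptor, had log2 fold changes between -0.20 and 0.22 with overlapping groups. Ramp2 shares 1103 exonic bases with Vps25 on the same strand, so its count is uncertain.

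Ratios within a library do not depend on how libraries are scaled. Kdr over Flt1, in CPM per kb, was 2.32 and 1.52 in control libraries against 3.22 and 3.55 in Brg1cKO libraries. Tek over Tie1 was 0.563 and 0.392 against 0.974 and 0.852. In both ratios the groups did not overlap. Of the 8 ratios computed, chosen after the values were seen, all had groups that did not overlap, and each had an exact two-sided permutation p of 0.333, the smallest possible, so none passed alone or adjusted.

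**Figure D4:**
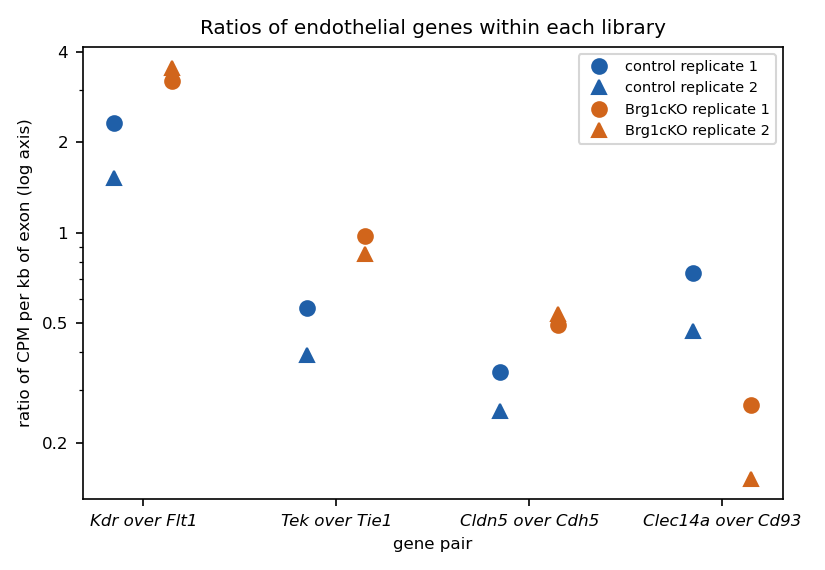
Ratio of CPM per kb of exon between genes of a pair in each library (log axis; blue, control; orange, Brg1cKO). Kdr over Flt1, Tek over Tie1 and Cldn5 over Cdh5 were higher in both Brg1cKO libraries than in both controls, and Clec14a over Cd93 was lower. The pairs were chosen after the values were seen, so their separation is no test.

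Of the 12 junction and surface genes, 8 were positive and 4 negative, and none passed. Cdh5, the adherens junction cadherin of endothelium, varied little, with 716 and 694 CPM in control libraries against 795 and 765 CPM in Brg1cKO libraries and an interval of the log2 fold change from -0.10 to 0.39. Cldn5, the tight junction claudin of vessels (ENSMUSG00000041378, chromosome 16, 18776847 to 18778262), stood at 82.7 and 59.7 CPM against 132 and 139 CPM. Both Brg1cKO libraries exceeded both controls, and the log2 fold change of 0.93 ± 0.279 (SE) had an adjusted p of 0.362 by edgeR. Cldn5 over Cdh5 was 0.343 and 0.255 in control libraries against 0.494 and 0.538 in Brg1cKO libraries, per kb.

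Clec14a, a lectin-like receptor on sprouting vessels (ENSMUSG00000045930, chromosome 12, 58264720 to 58269290), had the lowest log2 fold change of the 40. It stood at 97.3 and 77.6 CPM in control libraries against 49.4 and 28.9 CPM in Brg1cKO libraries, with no overlap. Its log2 fold change of -1.16 ± 0.392 (SE) had a 95% interval of -2.08 to -0.24 and adjusted p = 0.368 by edgeR. Cd93, a related lectin-like receptor, stood at 193 and 241 CPM against 269.6 and 278 CPM, higher in both Brg1cKO libraries (adjusted p = 0.551, edgeR). Clec14a over Cd93 was 0.735 and 0.471 against 0.268 and 0.152, per kb.

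Plvap stood at 395 and 256 CPM in the controls, which spanned the 378 and 376 CPM of the others. Pecam1 (CD31), which endothelium shares with platelets and white blood cells, and the sialomucin Emcn had fitted log2 fold changes of -0.01 and 0.01, and their signs turned under other scalings. Their intervals ran from -0.46 to 0.43 and from -0.49 to 0.50. Esam, an adhesion molecule of endothelial tight junctions, stood at 130.0 and 123 CPM against 109.7 and 90.3 CPM, lower in both Brg1cKO libraries (adjusted p = 0.708). Cd34, Icam2, Ecscr and Stab2 had overlapping groups.

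The 6 genes for ligands and secreted proteins were 4 positive and 2 negative. Apln, the peptide ligand of Aplnr made by tip cells, stood at 22.1 and 18.3 CPM in control libraries against 37.7 and 31.7 CPM in Brg1cKO libraries, without overlap (log2 fold change 0.78, interval -0.42 to 1.98, adjusted p = 0.657 by edgeR). Vwf, the clotting factor carrier of endothelium and megakaryocytes, stood at 77.1 and 116 CPM against 150.4 and 118 CPM, without overlap but with its higher control close to the lower Brg1cKO library (adjusted p = 0.631). Dll4, the Notch ligand of tip and arterial cells, stood at 35.4 and 11.7 CPM against 55.2 and 26.2 CPM, and here the groups overlapped. Egfl7, a secreted endothelial factor that was lower in both Brg1cKO libraries (adjusted p = 0.785), stood at 149 and 183 CPM against 144 and 139.5 CPM, and Mmrn2, a matrix ligand of Clec14a and Cd93, at 86.9 and 154 CPM against 158 and 143 CPM, with overlap. Esm1, also a tip cell gene, stood at 14.9 and 9.76 CPM against 11.2 and 10.03 CPM. The tip cell genes Apln, Dll4 and Esm1 thus had intervals that all took in both 0 and a change of 2-fold.

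The endothelial nitric oxide synthase gene Nos3 differed widely between the controls, at 25.1 and 119.8 CPM, with 78.5 and 84.3 CPM in Brg1cKO libraries. Rasip1, a Ras-interacting protein needed for vessel lumens, stood at 182 and 75.9 CPM in control libraries against 154 CPM in both of the others. For these genes the control spread alone covered the Brg1cKO values. Nos3 overlaps exons of the opposite-strand genes Gm15587 and Atg9b, by 1040 bases for the larger overlap. Rasip1 shares 654 exonic bases with Izumo1 on the same strand, so the counts of Nos3 and Rasip1 are uncertain.

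Of the 7 transcription factors, 5 were positive and 2 negative. Lyl1, a bHLH factor of endothelium and blood progenitors (ENSMUSG00000034041, chromosome 8, 84701457 to 84704715), stood at 14.0 and 10.9 CPM in control libraries against 39.99 and 30.1 CPM in Brg1cKO libraries. It had the highest log2 fold change of the 40, 1.49 ± 0.576 (SE), with an interval from 0.14 to 2.85 and adjusted p = 0.368 by edgeR. Its relative Tal1 stood at 47.7 and 22.9 CPM against 64.5 and 62.6 CPM, also without overlap (adjusted p = 0.553, edgeR). Both genes are also active in blood lineages, and the 14 macrophage markers summed to 373 and 415 CPM in control libraries against 1667 and 1565 CPM in Brg1cKO libraries. The megakaryocyte and platelet markers summed to 12.7 and 32.6 CPM against 86.2 and 106 CPM, while the red cell markers were lower in Brg1cKO libraries, at 634 and 653 CPM against 227 and 216 CPM. The part of blood cells in the Lyl1 and Tal1 values was not tested.

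The SOXF factors, which act together in vessel formation, were Sox17 at 16.1 and 25.0 CPM against 31.1 and 33.2 CPM, Sox18 at 41.1 and 65.0 CPM against 79.6 and 68.3 CPM, and Sox7 at 64.0 and 62.3 CPM against 64.7 and 50.5 CPM. Sox17 and Sox18 were higher in both Brg1cKO libraries than in both controls, with adjusted p = 0.754 and 0.730, while the Sox7 groups overlapped. Sox17 shares 804 exonic bases with an antisense gene. The ETS factors among the members did not separate. Fli1 stood at 125 and 77.4 CPM against 88.5 and 99.3 CPM, and Erg at 51.4 and 51.6 CPM against 62.7 and 48.7 CPM.

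The promoters of these genes were read for the short sequences that ETS factors bind, because Erg and Fli1 are among the members. RefSeq promoters of the GRCm38.p6 build were at hand for 22 of the 40 genes, in 27 windows of 250 bases that end at a transcription start. The letters AGGAAG, on either strand, were in 14 of the 27 windows (51.9%), of 13 genes, against 29.5% of 32851 windows of the same length over all genes. CGGAAG, the other ETS form searched, was in 7.41% against 13.6%. AGATAA, the GATA form, was in 7.41% against 9.99%, AACAAT, the SOX form, in 11.1% against 9.42%, and TATAAA in 7.41% against 12.4%. The members' windows were also richer in G and C, with a median of 58.4% against 52.4%. These are matches of letters and do not show that a factor binds. The 4 windows printed are those of the genes with the smallest p whose single RefSeq start is also a GENCODE transcript start, 5′ to 3′ on the gene's strand, with AGGAAG and CGGAAG in capitals, or CTTCCT and CTTCCG where the match is on the other strand. They are chr4:94739039-94739288 (plus strand) for Tek, chr16:18776597-18776846 (plus) for Cldn5, chr8:84701207-84701456 (plus) for Lyl1 and chr5:147726012-147726261 (minus) for Flt1.
Tek: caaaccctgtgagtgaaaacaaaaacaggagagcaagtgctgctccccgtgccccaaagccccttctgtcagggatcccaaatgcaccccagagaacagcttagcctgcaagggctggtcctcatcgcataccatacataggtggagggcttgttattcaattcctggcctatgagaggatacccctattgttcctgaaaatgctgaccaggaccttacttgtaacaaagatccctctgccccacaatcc
Cldn5: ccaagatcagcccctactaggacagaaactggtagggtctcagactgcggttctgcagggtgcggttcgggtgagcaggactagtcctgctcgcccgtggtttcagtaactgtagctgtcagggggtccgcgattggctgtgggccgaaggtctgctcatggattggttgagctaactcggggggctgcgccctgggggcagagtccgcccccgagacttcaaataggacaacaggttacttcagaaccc
Lyl1: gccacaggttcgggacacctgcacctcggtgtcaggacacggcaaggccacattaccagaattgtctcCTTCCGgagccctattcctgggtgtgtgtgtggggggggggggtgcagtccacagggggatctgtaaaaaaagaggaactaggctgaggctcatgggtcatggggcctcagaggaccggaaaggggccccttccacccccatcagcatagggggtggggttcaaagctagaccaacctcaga
Flt1: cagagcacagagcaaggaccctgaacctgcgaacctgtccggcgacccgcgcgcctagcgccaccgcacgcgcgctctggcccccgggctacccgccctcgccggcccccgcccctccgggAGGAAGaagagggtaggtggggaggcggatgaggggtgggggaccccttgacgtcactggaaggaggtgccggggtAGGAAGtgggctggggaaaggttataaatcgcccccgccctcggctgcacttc
The Flt1 window holds AGGAAG in 2 places, and that of Lyl1 holds CGGAAG in 1, on the other strand. Neither form is in the windows of Tek and Cldn5.

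The wider endothelial and angiogenic network was read from 7 lists of 69 other genes, also chosen with earlier results known. Of the 69 genes, 63 passed the low-count filter, 34 with positive and 29 with negative log2 fold changes (median 0.11). None was called by edgeR. At an unadjusted p under 0.05, 9 were higher (14.3% against 7.66% of all genes tested) and 6 lower (9.52% against 4.8%). DESeq2 called 7 higher and 6 lower, together 20.6% against 14.6% of all genes. Bmx, Gfi1b, Etv2 and Abcb1a were among the higher genes in both counts. In the controls they had 0 reads, or 0 and 8 for Abcb1a, and they passed the filter only through the Brg1cKO libraries. Their direction was thus fixed by the filter, and these shares are not read as an excess. The gene with the smallest p was Vegfa, the main ligand of Kdr and Flt1, at 231 and 260.2 CPM in control libraries against 86.1 and 81.3 CPM in Brg1cKO libraries (log2 fold change -1.55 ± 0.202, SE; adjusted p = 0.0840, edgeR). The VEGF co-receptor Nrp2 stood at 470.0 and 545 CPM against 379 and 378 CPM, and its relative Nrp1 at 105 and 141 CPM against 177 and 182 CPM. Vegfa was called by DESeq2 (adjusted p = 1.70e-22), limma voom (0.0212), the newer edgeR moderation (0.0215) and edgeR with the replicate block (0.00396), and its adjusted p over the 14 alternatives ran up to 0.109. Nrp1 and Nrp2 are also made by neurons and other cells. For none of the 7 lists does bulk RNA show which cells made the transcripts. Of the 15 genes in this signalling list, 12 were tested, 5 positive and 7 negative.

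The tip cell list had 1 positive and 3 negative genes. In it Igfbp3, an IGF-binding protein, stood at 255 and 231 CPM against 104 and 87.2 CPM (log2 fold change -1.35, adjusted p = 0.106, edgeR). Igfbp3 was called by DESeq2 (adjusted p = 2.55e-13), limma voom (0.0379), the newer edgeR moderation (0.0357) and edgeR with the replicate block (0.0101), and its adjusted p over the 14 alternatives ran up to 0.479. Cxcr4, a chemokine receptor, stood at 18.1 and 35.7 CPM against 13.0 and 14.2 CPM, and the guidance receptor Unc5b at 179 and 153 CPM against 213 and 209 CPM. The arterial and Notch list had 6 positive and 4 negative, and the 6 include Bmx, whose direction was fixed by the filter. Efnb2, the arterial ephrin, stood at 366 and 384 CPM against 255 and 344 CPM, and Jag1, a Notch ligand, at 92.9 and 66.5 CPM against 124 and 108 CPM. Bmx, a kinase of arterial and endocardial endothelium, was at 0 in both controls and at 10.6 and 2.01 CPM in the others, at least 75.0-fold higher against a floor of 3 counts over the controls. This bound covers counting error only, and the controls can differ by more, as for Lyve1 with 124 and 0 reads.

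The venous and lymphatic list had 2 positive and 2 negative of 4 tested. Ephb4, the venous receptor for ephrin-B2, stood at 369 and 227 CPM against 268 and 300.4 CPM, and Nr2f2, a factor of venous identity, at 293 and 212 CPM against 218 and 212 CPM. Lyve1, a hyaluronan receptor of lymphatic vessels and of embryonic macrophages, stood at 8.06 and 0 CPM against 26.2 and 19.7 CPM, and the lymphatic factor Prox1 at 19.4 and 30.5 CPM against 38.5 and 30.8 CPM. Pdpn, another lymphatic gene, had 0 reads in all 4 libraries.

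Among 13 other endothelial and haemogenic factors tested, 10 were positive and 3 negative, with a median of 0.48, also with Gfi1b and Etv2 at their bounds. The 10 include Gfi1b and Etv2, whose direction was fixed by the filter. Mef2c stood at 55.1 and 107 CPM against 135 and 156 CPM, and Klf2, a factor induced by blood flow, at 42.1 and 94.0 CPM against 147 and 108 CPM. Gfi1b and Etv2 were at 0 in both controls and at 4.78 and 1.23 CPM, and at 0.922 and 0.617 CPM, in the others. Against the floor of 3 counts over the controls these are at least 35.6-fold and at least 8.89-fold higher. Such bounds cover counting error only.

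Of 14 further endothelial genes, 6 were positive and 8 negative. Plxnd1, a semaphorin receptor and the most abundant of them, stood at 1431 and 1234 CPM against 1535 and 1517 CPM, and Heg1, a junction-linked receptor, at 101 and 135 CPM against 180.1 and 185 CPM. Myct1 stood at 96.9 and 44.0 CPM against 20.9 and 26.1 CPM, and Cyyr1 at 99.0 and 78.0 CPM against 38.9 and 47.1 CPM. Both were lower in the Brg1cKO libraries without overlap, with adjusted p = 0.368 each by edgeR. The brain barrier list had 4 positive and 2 negative, and the positive genes include Abcb1a, whose direction was fixed by the filter. The glucose transporter Slc2a1 stood at 517 and 610.2 CPM against 384 and 398 CPM. The amino acid transporter Slc7a5 stood at 93.4 and 59.2 CPM against 139 and 146 CPM, and Itm2a at 59.2 and 50.9 CPM against 83.8 and 103 CPM.

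**Figure D5:**
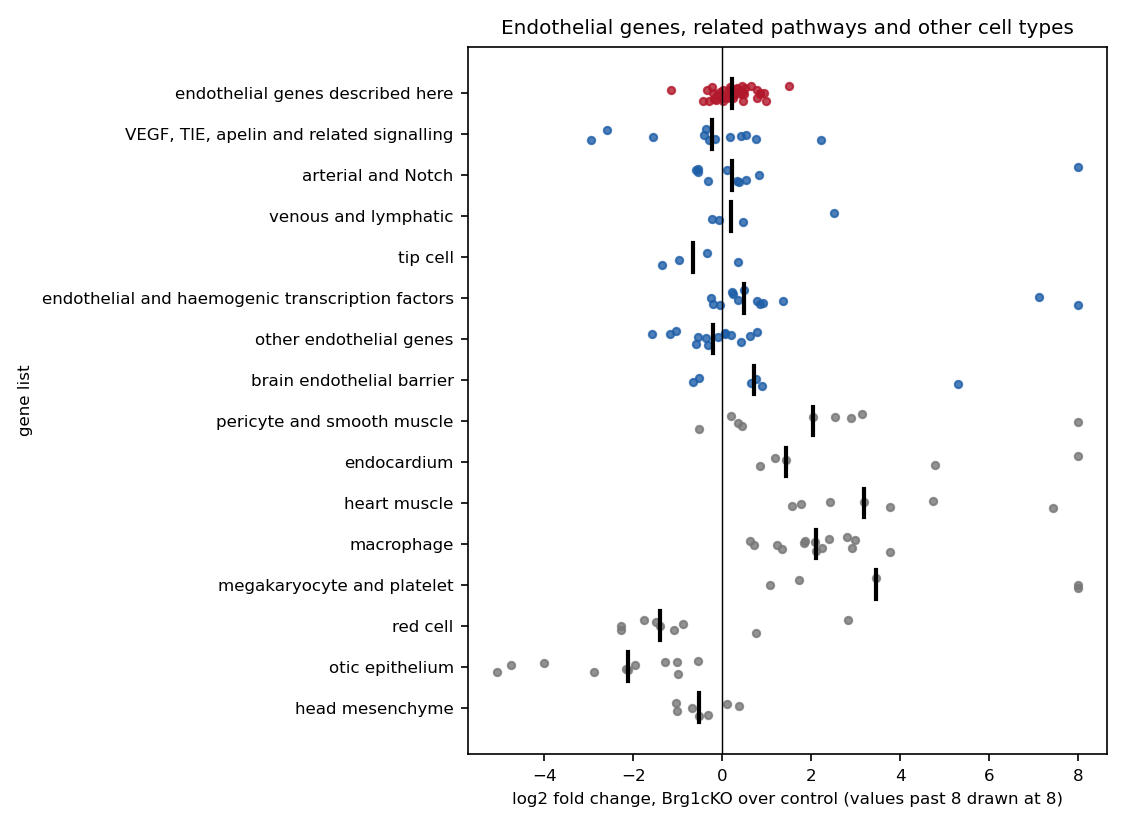
Log2 fold change of Brg1cKO over control for the 40 endothelial genes (red), the related pathway lists (blue) and lists of other cell types (grey). Each point is a tested gene, bars are medians (0.21 for the 40 genes), and genes at 0 in both controls such as Gata5, Bmx and Gfi1b are drawn at their fitted value, which is no bound, or at 8 where it is higher.

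Summed levels of other cells' markers differed between the groups by ratios further from 1 than the endothelial sum did, and their part in the endothelial values was not tested. The lists of other cell types were chosen with earlier results of these data known. Their counts beside the shares over all genes are therefore no test. The 5 endocardial markers, of the endothelium inside the heart, summed to 232 and 263 CPM in control libraries against 659 and 691 CPM in Brg1cKO libraries. All 5 were higher without overlap, where 26.3% of all genes tested were higher and 17.8% lower in that way. Gata5 was at 0 in both controls and at 30.0 and 17.7 CPM in the others, so its direction was fixed by the filter. Hapln1 stood at 93.7 and 154 CPM against 331 and 337 CPM. The 7 heart muscle markers summed to 159 and 116 CPM against 718 and 697 CPM. All 7 were higher without overlap, against 26.3% of all genes tested. Tnni1 and Myl7 were at 0 in a control library, so they could pass the filter only with Brg1cKO reads. Named by the smallest p or the highest level were Myh6, an atrial myosin, at 18.0 and 7.64 CPM against 113 and 119 CPM and Actc1, the cardiac actin, at 17.3 and 34.2 CPM against 145 and 133 CPM. Of the 14 macrophage markers, 13 were higher without overlap, again against 26.3% of all genes tested. Aif1 was at 0 in a library. In that list Mrc1 was called (46.3 and 71.7 CPM against 424 and 397 CPM, adjusted p = 0.0371), and Coro1a, which had the next smallest p, stood at 51.1 and 45.9 CPM against 214 and 205 CPM. C1qb, the highest of the list per kb of exon, stood at 25.5 and 20.7 CPM against 116 and 102 CPM.

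Megakaryocyte and platelet markers, which share Vwf and Pecam1 with endothelium, summed to 12.7 and 32.6 CPM against 86.2 and 106 CPM. Of the 6, 5 were tested, and all 5 were higher without overlap, against 26.3% of all genes tested. Pf4, a platelet chemokine, stood at 0.130 and 0 CPM against 21.5 and 32.0 CPM, and Itgb3 at 12.5 and 12.4 CPM against 33.7 and 48.9 CPM. Gp9 and Ppbp were at 0 in both controls. Pf4 and Ppbp entered the test only through the Brg1cKO libraries, so their direction was fixed by the filter. Itga2b and Gp1bb were also at 0 in a library. Pericyte and smooth muscle markers, of the cells that wrap vessels, summed to 456 and 583 CPM against 729 and 752 CPM. Of 9 tested genes, 5 were higher and 1 lower without overlap, against 26.3% and 17.8% of all genes tested. Acta2 stood at 31.6 and 20.5 CPM against 137 and 166 CPM, and Des at 3.05 and 7.43 CPM against 38.2 and 54.8 CPM, while Kcnj8 and Myh11 were at 0 in both controls. Kcnj8 thus entered the test only through its Brg1cKO reads, which fixed its direction.

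The other lists had negative medians. Their counts of genes without overlap stand beside 17.8% of all genes tested that were lower and 26.3% that were higher. Red cell markers summed to 634 and 653 CPM in control libraries against 227 and 216 CPM in Brg1cKO libraries, with 6 of 9 tested genes lower and 1 higher without overlap, and with Hbb-y and Hba-x, both embryonic globins, at 224 and 372 CPM against 95.5 and 81.2 CPM and at 254 and 159 CPM against 78.9 and 76.9 CPM. The 11 otic epithelial markers summed to 1783 and 1738 CPM against 317 and 317 CPM, 9 of them lower without overlap, with Oc90 called (adjusted p = 0.000326, edgeR) and Otx1 at 36.4 and 80.1 CPM against 1.40 and 2.08 CPM. The 7 head mesenchyme markers summed to 3783 and 3957 CPM against 2867 and 2930 CPM, 4 lower and 2 higher without overlap, with Col1a1 at 1107 and 1207 CPM against 568 and 580.4 CPM and Col1a2 at 905 and 968 CPM against 551 and 620.2 CPM. The summed endothelial level thus differed by a ratio of 1.14 between group means, where these lists differed by ratios from 0.18 (otic epithelium) to 5.14 (heart muscle).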

How the data were processed

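RNA-seq was made from 4 libraries of 3000 sorted cells with a random-primed, strand-specific SMART-seq kit and single-end 75 bp reads, per the labels' protocols. The authors deposited raw read counts per Ensembl gene. Per the submitters' processing notes the tools were HISAT2, HTSeq and DESeq2 and the build mm10, without roles or versions. Which strand setting and annotation the counting used is not given in the sources used here. The 5 rows per file that name no gene, 36.0% to 51.8% of records, stayed out of library sizes and tests. Symbols, positions and exon lengths came from GENCODE M21 on that build, where 52489 of 52636 identifiers had an entry.

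The test was edgeR 4.0.16 under R 4.3.3 (filterByExpr with a minimum count of 10, TMM, robust glmQLFit at its installed defaults, quasi-likelihood F-test, group as the only term, Benjamini-Hochberg adjustment over all genes, called under 0.05). Intervals are at 95%. limma 3.58.1 and DESeq2 1.42.0 served as alternatives among the 14 tried. Levels are TMM-scaled CPM, divided by kb of merged exons where genes are compared. A fold against genes at 0 uses a floor of 3 counts over the group. The labels name no molecular identifiers, so bounds cover counting error only.

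Values are given for Smarca4, for members called, within each role for up to 4 members with the smallest p and 3 with the highest level, and for up to 3 genes of each pathway list and 2 of each cell list with the smallest p, with the 1 of highest level. Members outside that rule are named to account for all 40, and Myh11, Kcnj8, Ppbp, Gp9 and Pdpn as genes at 0. The members and lists were chosen with earlier results of these data known.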

Additional observations from a re-analysis of the deposited data

How the results depend on the processing

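The median log2 fold change of the 40 endothelial genes stayed positive under all 14 alternatives. Their summed level stayed higher in the libraries labelled Brg1cKO under the 7 for which it was computed, with ratios from 1.08 to 1.19. The median was 0.21, and it was 0.33 with limma voom, 0.33 with the replicate block, and 0.15 to 0.31 with each library left out. The all-gene median also rose, from 0.03 to 0.16 with limma voom and to 0.16 with the replicate block. With every gene of at least 1 count kept, both medians were 0.21. The members' median was below the all-gene median in both fits without a control library. The count of members called was 0 and became 1 (Tek) with every gene of at least 1 count, 6 with DESeq2, 1 (Tek, adjusted p = 0.0483) with the replicate number as a block, and 0 to 14 with each library left out. Of these 4 fits the 2 without a control library gave calls (14 and 10), and there the lone control is assumed to vary like the Brg1cKO libraries. The count of all genes called, 5, became 417 with every gene of at least 1 count, 10 with a minimum count of 50, 2422 with DESeq2, 54 with limma voom, 70 with the newer edgeR moderation, 140 (0.846%) with the replicate block, and 33 to 3519 with each library left out. Deviations of same-numbered libraries had a correlation of 0.0096. This shows no pairing, but with 2 libraries per group it cannot decide whether replicates were paired.

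Of the 40, 29 were positive, a number that RLE scaling made 27 and upper quartile scaling 30. Tie1 was at -0.0208 with RLE scaling and -0.0210 with DESeq2, Emcn at -0.0302, -0.0302 and -0.00155 with RLE scaling, DESeq2 and a minimum count of 50, and Pecam1 at 0.0243 with upper quartile scaling and 0.0253 with limma voom. Notch4 was at 0.10 with limma voom and 0.0442 with the replicate block, and Ephb4 at 0.0025 with limma voom. With each library left out the log2 fold change ran from -0.13 to 0.40 for Aplnr, -0.15 to 0.17 for Emcn, -0.11 to 1.07 for Eng, -0.39 to 0.33 for Ephb4, -0.0694 to 0.29 for Erg, -0.51 to 0.13 for Esm1, -0.44 to 0.28 for Fli1, -0.88 to 0.62 for Icam2, -0.0279 to 0.77 for Mmrn2, -0.55 to 1.68 for Nos3 and -0.51 to 0.60 for Notch4. It ran from -0.47 to 0.0250 for Nr2f2, -0.23 to 0.21 for Pecam1, -0.0857 to 0.56 for Plvap, -0.15 to 0.77 for Ptprb, -0.40 to 1.25 for Ramp2, -0.26 to 1.02 for Rasip1, -0.39 to 0.0030 for Robo4, -0.31 to 0.0410 for Sox7, -0.16 to 3.61 for Stab2 and -0.0889 to 0.12 for Tie1. The cause was not tested. The fit has 2 residual degrees of freedom.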
